A study of Mus musculus with 2 samples.

Results

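The genes described here are the 10 mouse genes of the classical and accessory MHC class II pathway that were chosen by name: Cd74, H2-Aa, H2-Ab1, H2-Eb1, H2-DMa, H2-DMb1, H2-DMb2, H2-Oa, H2-Ob and their transcriptional coactivator Ciita. They are 10 of 21774 protein-coding genes on chromosomes 1 to 19, X and Y, and were listed by name, without a threshold on any measured value. The list was made with earlier results of these data known. The data are peak summits of H3K27ac, the acetylation of lysine 27 of histone H3 that marks promoters and enhancers in use, from CUT&Tag, an assay in which an antibody tethers a transposase to marked chromatin. Both libraries came from colonic macrophages sorted as Siglec-F-negative, Ly6C-low and CD64-positive from untreated male C57BL/6 mice aged 11.1 weeks. The WT library came from mice that carry Lyz2-Cre alone, and the Tle4cKO library from mice with floxed Tle4 alleles (Tle4f/f) and Lyz2-Cre, so both genotypes carry the Cre transgene. Lyz2-Cre is active across myeloid cells and not in macrophages alone. Cells of 4 mice were pooled per genotype, which leaves 1 library for each and no replicate. No test between the genotypes was possible, and no difference given here has a replicate check.

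MHC class II molecules display peptides from endosomes to CD4+ T cells. An alpha and a beta chain pair in the endoplasmic reticulum around the invariant chain, which is then cut down in endosomes, and the H2-DM dimer exchanges the remaining fragment for a peptide, while the H2-O dimer restrains H2-DM. Most of these genes carry an upstream arrangement of an X box and a Y box, bound by the RFX complex, CREB and NF-Y, on which the coactivator CIITA assembles. Resident macrophages of the gut are known for high class II levels, and Tle4 encodes a Groucho-family corepressor.

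The WT list held 10474 summits and the Tle4cKO list 2350, a ratio of 4.46 to 1. Each summit carries a score, read here as the authors' −log10 of a p- or q-value for that peak, and its median was 4.47 over all WT summits and 4.05 over all Tle4cKO summits. The sequencing depth is unknown, and scores were used only to place a summit within its own list. A summit that is missing from a list was not called there and may carry signal under the calling threshold. Neither library had a summit within 10 kb of Tle4 itself, so the lists give no check of the deletion. Of 18 macrophage marker genes, 9 had a WT summit inside or up to 10 kb away, among them Fcgr1, which encodes CD64, Csf1r, Adgre1, Mertk and Cx3cr1, and 0 had a Tle4cKO summit. Markers with none in either library included Itgam, C1qa, C1qb, C1qc, Lyz2, Tyrobp, Siglec1 and Cd163. Among cells that can also carry class II, WT summits lay in the same window at 9 of 13 dendritic cell markers and at 5 of 13 B and plasma cell markers, and Tle4cKO summits at 3 of each. At starts, as counted below, WT summits lay at 5 macrophage, 1 dendritic cell and 2 B and plasma cell markers. Tle4cKO summits lay at the starts of 0, 0 and 1. Over all genes the shares at starts were 23.9% for WT and 6.63% for Tle4cKO. Of 10 intestinal epithelial and 10 T and innate lymphoid markers, 1 each had a WT summit and 0 a Tle4cKO summit. The part that the mix of cells has in the differences below was not tested.

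Around the class II genes, acetylation peaks were called at or near more genes in WT than in Tle4cKO, but not with equally long lists. With the 2350 highest WT summits alone (6.37 or more), 2 genes had one from WT and 3 had one from Tle4cKO. The Tle4cKO list was uncut there, and its summits at Ciita and H2-Eb1 scored 2.31 and 1.92. With a score of at least 5 in both lists, which left 4205 WT and 746 Tle4cKO summits, the genes numbered 4 and 1. Shares over all genes were not computed at these cuts. The counts that follow use the whole lists. In the gene or within 10 kb of its outer bounds, 7 of the 10 genes had a WT summit (Cd74, H2-Aa, H2-Ab1, H2-Eb1, H2-DMa, H2-DMb2 and H2-Oa), where 39.4% of all protein-coding genes did. A Tle4cKO summit lay in this window for 3 genes (Cd74, H2-Eb1 and Ciita), against 11.7% of all genes. Cd74 and H2-Eb1 had both, where 10.9% of all genes did, 5 genes had a WT summit alone, as did 28.5% of all genes, and Ciita was the 1 gene with a Tle4cKO summit alone, a class that held 0.836% of all genes. Of the 7 genes with a WT summit 2 also had a Tle4cKO summit, and over all genes with a WT summit 27.6% did. H2-DMb1 and H2-Ob had neither, as did 59.8% of all genes. Among genes in the range of the members' lengths the shares were 41.9% for WT and 12% for Tle4cKO. As the class II genes lie side by side, these counts are not independent: 10 distinct WT summits and 3 distinct Tle4cKO summits lie behind them.

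**Figure D1:**
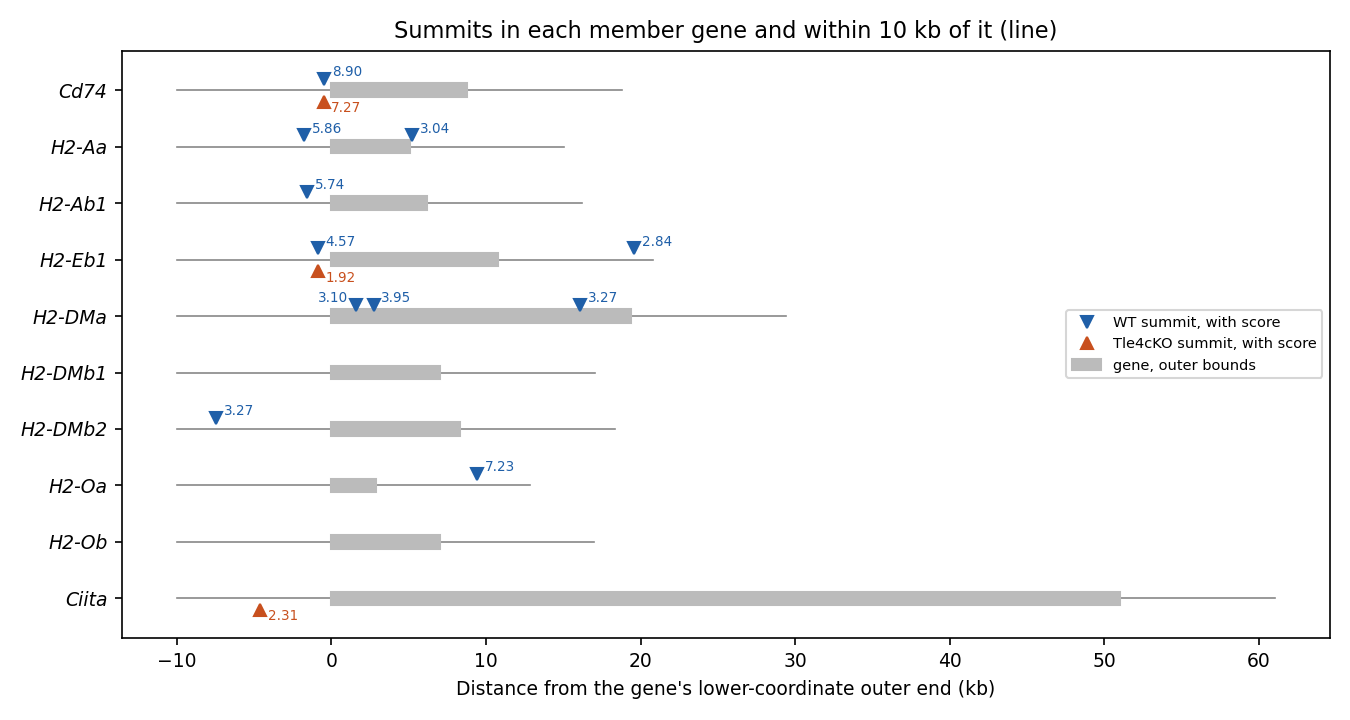
Summits in and around each of the 10 genes. The horizontal axis is the distance in kb from the gene's end at the lower chromosome position, grey bars are the outer bounds of the gene, the thin line reaches 10 kb to either side, and triangles are WT (blue, pointing down) and Tle4cKO (orange, pointing up) summits with their scores. WT and Tle4cKO summits coincide at Cd74 and H2-Eb1, and the rows of H2-DMb1 and H2-Ob are empty.

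The invariant chain gene had the highest score of the group in each list. Cd74 encodes the chaperone that fills the peptide groove of new class II molecules and routes them to endosomes (chromosome 18, 60803849 to 60812652, mm10). In WT a single summit lay in its window, at position 60803389, with a score of 8.90 and rank 886 of the list. In Tle4cKO a single summit lay at position 60803343, with a score of 7.27 and rank 326. The summits were 46 bp apart and lay 460 and 506 bp outside the gene's end at the lower position. In both libraries the nearest other protein-coding gene was Tcof1, a nucleolar protein gene, with its bounds 10349 and 10395 bp away, so no protein-coding neighbour has an end within 10 kb of these summits. In the highest decile of WT scores, in which the Cd74 summit falls, most summits (61.3% of 1048) had a Tle4cKO summit within 500 bp, called a partner here.

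H2-Aa and H2-Ab1 encode the alpha and beta chains of I-A, the class II molecule that C57BL/6 mice place on the cell surface, and both had WT summits alone. H2-Aa (chromosome 17, 34282744 to 34287823) is transcribed towards lower positions from its start at 34287823. A WT summit with a score of 3.04 (rank 8657) lay at position 34287987, which is 164 bp upstream of that start and inside the promoter window that RefSeq gives for the gene. Among the members for which RefSeq gives such a window, 250 bases before to 50 bases after the start, it was the only summit inside the gene's own window. The next gene, H2-Eb1, is 17880 bp from it.

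The 250 bases before the H2-Aa start (chr17:34287824-34288073, minus strand, GRCm38.p6, the assembly of mm10) are shown because this summit falls in them; capitals mark AAC, part of the X box, and ATTGG, the Y box.
H2-Aa: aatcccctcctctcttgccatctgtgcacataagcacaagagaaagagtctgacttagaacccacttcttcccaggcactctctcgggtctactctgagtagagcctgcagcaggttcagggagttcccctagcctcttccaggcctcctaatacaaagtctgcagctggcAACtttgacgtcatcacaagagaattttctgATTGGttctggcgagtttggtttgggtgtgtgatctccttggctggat

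In this stretch AAC begins 79 bp and ATTGG 48 bp before the start, and the WT summit is 85 bp from the first base of AAC. A second WT summit of H2-Aa had a higher score of 5.86 (rank 2881) and lay at position 34280958, 1786 bp beyond the gene's far end and 6865 bp downstream of its start. H2-Ab1 is 11540 bp away on the other side, so by distance this summit belongs to the H2-Aa end of the interval, but the data do not assign it to either gene. H2-Ab1 (34263227 to 34269418) had 1 WT summit, with a score of 5.74 (rank 3070), at position 34261629. It lay 1598 bp outside the end of H2-Ab1 at the lower position and 15721 bp from H2-Ob, the next protein-coding gene. The nearest Tle4cKO summit to the H2-Aa and H2-Ab1 genes was the one at H2-Eb1, 17172 bp and 35577 bp outside them. In the decile of WT scores that holds the 2 higher summits (5.86 and 5.74), 22% of 1047 had a Tle4cKO partner, and in the decile of the H2-Aa promoter summit 6.59% did.

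H2-Eb1 was the second gene with summits in both libraries. It encodes the beta chain of I-E, which does not reach the surface in C57BL/6 mice because their alpha chain gene, H2-Ea, is defective, and RefSeq lists H2-Ea as a transcribed pseudogene. The WT summit (score 4.57, rank 5056) lay at position 34304993 and the Tle4cKO summit (score 1.92, rank 2305 of 2350) at 34304995. They were 2 bp apart, where WT summits with a partner were a median of 91 bp from it, and lay 874 and 872 bp upstream of the H2-Eb1 start at 34305867. The Tle4cKO score was among the lowest of its list, whose lowest value was 1.37, while the WT score was just above the WT median. In the decile of WT scores that holds the H2-Eb1 summit, 12.9% of 1047 summits had a partner. The next protein-coding genes were H2-Aa, 17170 bp from the WT summit, and H2-Eb2, 20510 bp from it. A further WT summit in the 10 kb window of H2-Eb1 (2.84, rank 9069, position 34325477) is 8803 bp beyond the gene and only 26 bp outside H2-Eb2, another class II beta gene, so it may belong to H2-Eb2.

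That summit lay 198 bp upstream of the listed start of H2-Eb2 at 34325675, again inside the gene's promoter window. The 250 bases before this start (chr17:34325425-34325674, plus strand, GRCm38.p6) are shown for comparison with H2-Aa, with the same capitals.
H2-Eb2: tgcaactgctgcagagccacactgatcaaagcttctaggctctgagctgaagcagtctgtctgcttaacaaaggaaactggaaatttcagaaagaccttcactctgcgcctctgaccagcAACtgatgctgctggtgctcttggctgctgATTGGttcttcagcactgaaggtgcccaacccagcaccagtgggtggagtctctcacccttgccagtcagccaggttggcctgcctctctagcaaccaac

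The WT summit is 68 bp from the first base of AAC here. At both promoters the WT summit was upstream of the pair of boxes. The nearest Tle4cKO summit was 17172 bp from the start of H2-Aa and 20680 bp from that of H2-Eb2.

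The X and Y boxes were compared across the class II promoters because the arrangement is known from class II genes. RefSeq promoter windows matched 7 of the 10 genes (H2-Aa, H2-Eb1, H2-DMa, H2-DMb1, H2-DMb2, H2-Oa and H2-Ob); the others were Cd74, H2-Ab1 and Ciita. With H2-Eb2 and the pair of listed starts of H2-DMa there were 9 windows. The motif AAC followed after 25 to 28 bases by ATTGG was found upstream of the start in 7 of them, and the spacing was read from these sequences. In 32817 promoter windows of the same length, searched on both strands, 2.49% held this arrangement, 37.4% held ATTGG alone and 39.3% held TGATG. The 7 stretches are given with 10 bases on either side (all GRCm38.p6), in the order of the number of bases between AAC and ATTGG.
H2-Ob: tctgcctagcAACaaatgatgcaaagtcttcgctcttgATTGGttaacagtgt
H2-Eb1: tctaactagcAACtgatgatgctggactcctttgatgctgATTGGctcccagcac
H2-Eb2: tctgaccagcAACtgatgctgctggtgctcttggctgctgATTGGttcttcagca
H2-Aa: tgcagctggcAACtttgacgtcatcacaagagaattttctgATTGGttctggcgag
H2-DMb1: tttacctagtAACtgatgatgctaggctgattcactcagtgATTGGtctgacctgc
H2-DMb2: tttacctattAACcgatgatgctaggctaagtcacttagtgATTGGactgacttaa
H2-Oa: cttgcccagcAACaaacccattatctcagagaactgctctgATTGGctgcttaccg

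Between AAC and ATTGG lie 25 bases in H2-Ob, 27 in H2-Eb1 and H2-Eb2 and 28 in the others. As AAC is only part of the X box, these are not the gaps between the whole boxes. AAC begins between 74 bp (H2-Oa) and 130 bp (H2-Eb2) before the start. TGATG lies between AAC and ATTGG in 5 of the 7 (not in H2-Aa or H2-Oa), and H2-Aa has TGACG there, a core of the element that CREB binds. The promoters with the arrangement differed in their distance to a summit: WT summits lay within 1 kb of the start at H2-Aa, H2-Eb1 and H2-Eb2, while the nearest WT summit was 9407 bp from the start at H2-Oa, 9482 bp at H2-DMb2, 17424 bp at H2-DMb1 and 22724 bp at H2-Ob.

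The H2-DM genes, whose products load peptides, had 3 WT summits, all inside the bounds of H2-DMa, and 1 of them also in the window of H2-DMb2. RefSeq's outer bounds of H2-DMa (34119693 to 34139101) overlap Brd2, a bromodomain protein gene transcribed in the opposite direction, and 2 of the 3 WT summits of H2-DMa lay in the overlap. The summit at 34122426 (3.95, rank 6418) was 406 bp upstream of the H2-DMa start at 34122832 and 181 bp from a Brd2 start. The summit at 34121305 (3.10, rank 8523) was 1527 bp upstream of the same H2-DMa start and 442 bp from another Brd2 start, so both may belong to Brd2. The promoter at 34122832 was the most GC-rich of the class II windows, at 74% G and C over the 250 bases before the start. The others stood at 37.2% to 53.6%, and the median over all promoter windows was 52.4%. The upper bound of Brd2, at 34122814, lies in the 250 bases before 34122832. Neither of the listed H2-DMa windows held the box arrangement. No other H2-DMa start was listed, so promoters elsewhere in its bounds were not searched. The third summit, at 34135767 (3.27, rank 8105), lay inside the outer bounds of H2-DMa, 3334 bp from its upper end. It was 10249 bp downstream of the nearest listed H2-DMa start. Unlisted inner starts were not available, so whether the summit lies at a start of H2-DMa is not known. The same summit is the only one in the window of H2-DMb2 (34143229 to 34151553). It lay 7462 bp outside that gene and 9482 bp upstream of its listed start, so H2-DMa is the nearer candidate. H2-DMb1 (34153191 to 34160229), the tandem copy of H2-DMb2, had no summit in its window in either library. The nearest Tle4cKO summit was 63274 bp outside H2-DMa, 50822 bp outside H2-DMb2 and 42146 bp outside H2-DMb1. H2-DMb1 and H2-DMb2 are close copies of each other, and how the authors treated reads that map to both is not stated in the labels.

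The H2-O genes, whose products restrain H2-DM and are known mainly from B cells, differed from each other in WT. H2-Oa (34092379 to 34095234) had 1 WT summit in its window, with the second highest score of the group (7.23, rank 1611), at position 34101786. It lay 6552 bp beyond the gene and 9407 bp downstream of its start. The start of the long non-coding RNA gene BC051537 was 6477 bp from it and the bounds of Brd2 10233 bp, so the summit lies between genes and may belong to any of them. Within that decile of WT scores 27.2% of 1047 summits had a partner, and here the nearest Tle4cKO summit was 100589 bp away. H2-Ob (34238905 to 34245908) had no summit in its window: the nearest WT summit was the one at H2-Ab1, 15721 bp outside H2-Ob, and the nearest Tle4cKO summit was 36530 bp outside it.

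Ciita, which encodes the coactivator that switches class II genes on, had a Tle4cKO summit and no WT summit in its window. It has several alternative promoters that are used in different cell types (chromosome 16, 10480014 to 10531064). The nearest WT summit, at position 10418305 with a score of 8.50, was inside Nubp1, 61709 bp outside Ciita. A Tle4cKO summit lay at position 10475376, 4638 bp outside the end of Ciita at the lower position, with a score of 2.31 and rank 2187 of 2350. The long non-coding RNA gene Gm41420 starts 5373 bp from it, and the next protein-coding gene, Tvp23a, is 27986 bp away. Of the Tle4cKO summits in this lowest decile of scores 60.4% of 235 had a WT partner, whereas this one was 57071 bp from the nearest WT summit.

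**Figure D2:**
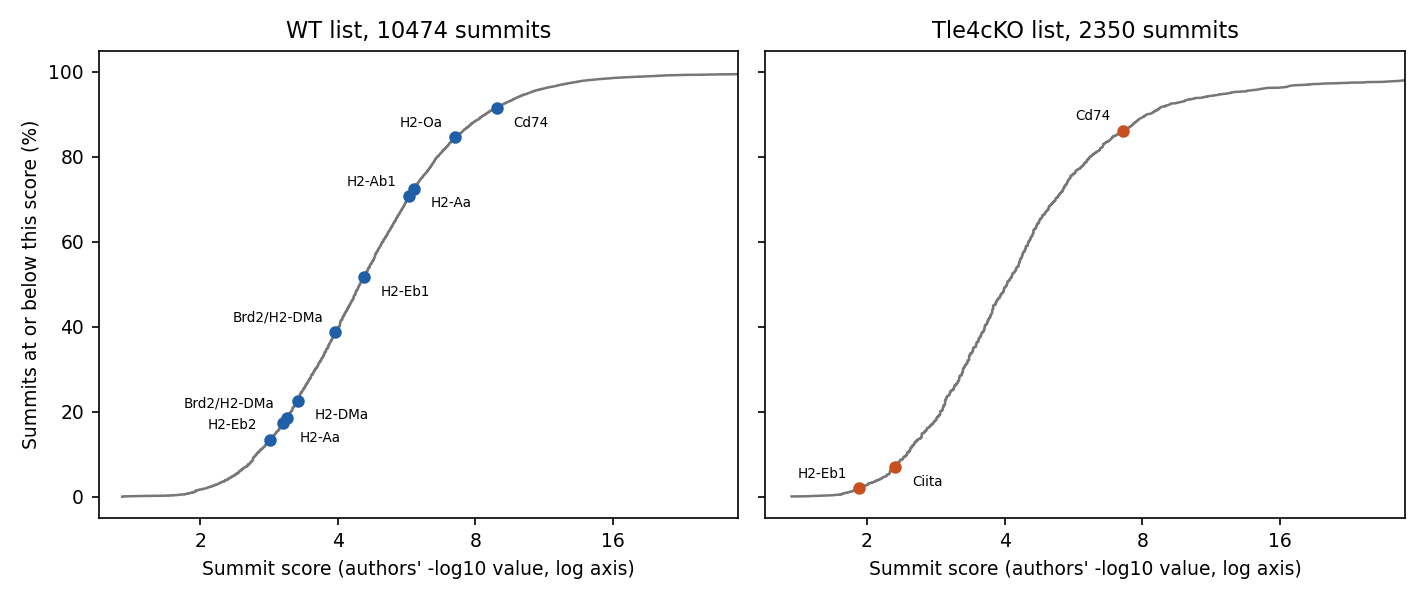
Where the summits of the class II genes stand in each list. The grey curves give the percentage of all summits (vertical axis) at or below a score (horizontal log axis, the authors' −log10 value) in WT (left) and Tle4cKO (right), and points are the summits in the members' windows, labelled with the nearest protein-coding gene. WT points run from 2.84 to 8.90 along the curve, and of the Tle4cKO points Cd74 stands high and H2-Eb1 and Ciita stand at the low end.

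As a group, the 10 WT summits had a median score of 4.26, with a lowest value of 2.84 and a highest of 8.90. Of them, 5 were above the median of the WT list, so the group was neither at the top nor at the bottom of the list. The 3 Tle4cKO summits scored 7.27, 2.31 and 1.92, and 1 of them was above the Tle4cKO median. A partner within 500 bp was found for 2 of the 10 WT summits (20%, exact Clopper-Pearson 95% interval 2.52 to 55.6%, counting error only), against 18% of the whole WT list. Of the 3 Tle4cKO summits 2 had a WT partner, against 79.7% of the Tle4cKO list. The interval around the WT share holds the share of the whole list, and with 10 summits it is wide. It takes the summits as independent, though all but that of Cd74 lie in 1 stretch of chromosome 17, so it is not a test. At starts, counted within 1 kb of a listed start or, where none was listed, of either outer end, 4 of the 10 genes had a WT summit (Cd74, H2-Aa, H2-Eb1 and H2-DMa), against 23.9% of all genes, and Cd74 and H2-Eb1 had a Tle4cKO summit, against 6.63%. H2-DMa is counted here through the summit at 34122426, which lay 181 bp from a Brd2 start and may belong to Brd2.

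The class II genes on chromosome 17 lie in a stretch with other presentation genes. From H2-Oa to the end of H2-Eb1, a span of 224 kb with 13 protein-coding genes, the WT list held 10 summits and the Tle4cKO list 2, beside the ratio of 4.46 to 1 between the whole lists. Between H2-DMb1 and H2-Ob lie Psmb9, Tap1, Psmb8 and Tap2, which encode proteasome subunits and the peptide transporter of the class I pathway. A WT summit at 34187643 (4.44) lay where the starts of Tap1 and Psmb9 face each other, and the nearest Tle4cKO summit was 14732 bp away. Between Psmb8 and Tap2 a WT summit at 34202945 (4.62) and a Tle4cKO summit at 34202375 (2.29) lay 570 bp apart and so just outside the 500 bp that counted as shared. From H2-K1 to Notch4, a span of 593 kb with 26 protein-coding genes, there were 18 WT and 2 Tle4cKO summits.

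**Figure D3:**
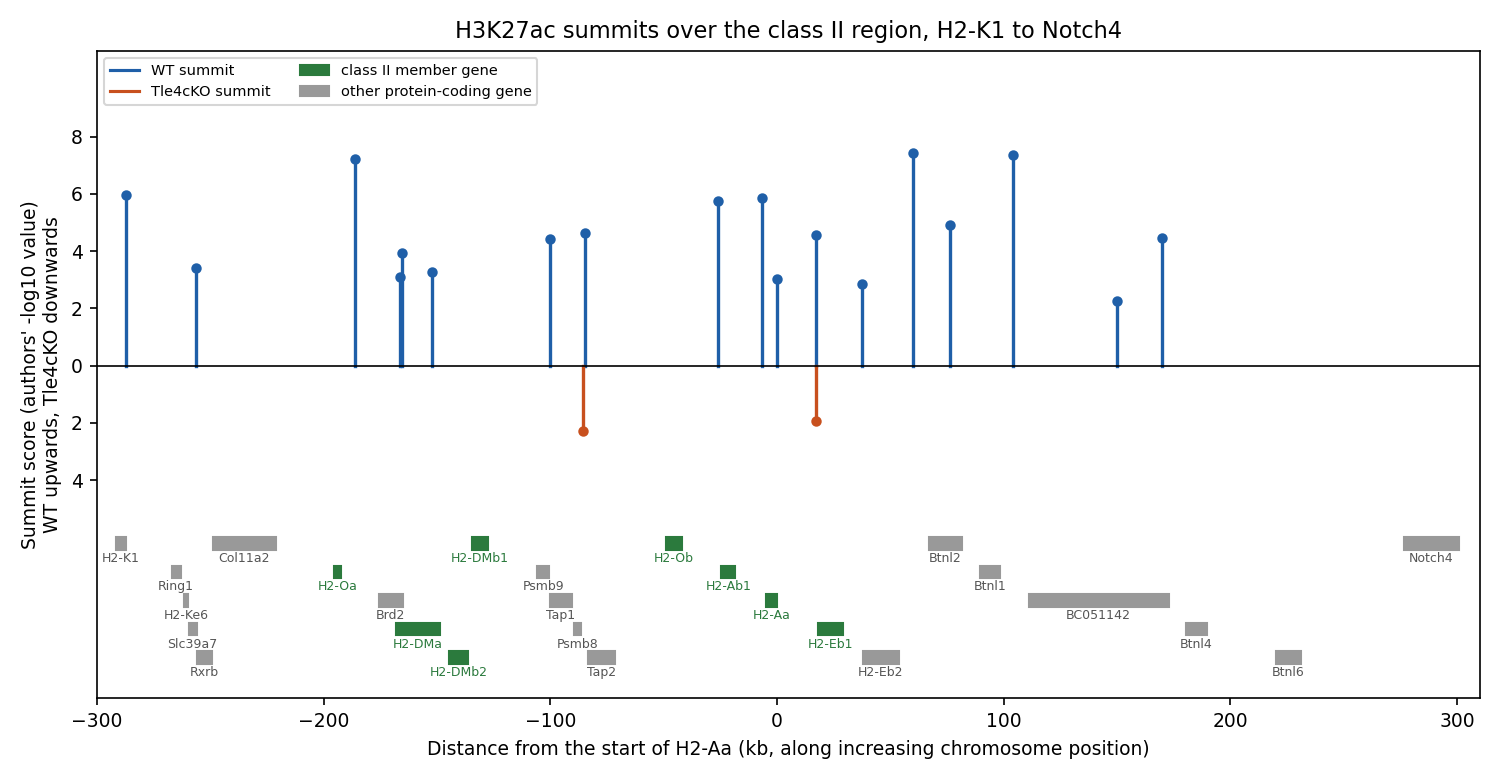
Map of the class II region from H2-K1 to Notch4. The horizontal axis is the distance in kb from the start of H2-Aa towards higher chromosome positions; stems are summits with their score (the authors' −log10 value), WT upwards in blue and Tle4cKO downwards in orange; boxes are protein-coding genes, with the class II members in green. The 18 WT stems run from H2-K1 to BC051142, with none over Btnl4, Btnl6 and Notch4, and the Tle4cKO stems number 2, one between Psmb8 and Tap2 and one at H2-Eb1.

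Genes that act on class II molecules from elsewhere in the genome were counted in the same 10 kb window, with a background over all genes of 39.4% for WT and 11.7% for Tle4cKO. The exact 95% intervals of the peptide loading and co-stimulation lists held this background in both libraries. For the regulators the interval held it in Tle4cKO, but lay above it in WT (44.7 to 84.4%). Those of class I presentation lay above it, at 63.6 to 98.5% in WT and 18.4 to 67.1% in Tle4cKO. They take genes as independent, though neighbouring class I genes share summits, so they are not a test. Of 24 regulators of class II transcription, 16 had a WT summit and 5 a Tle4cKO summit, each of the latter with a WT summit as well. Rfxap and Rfx5, subunits of the complex that binds the X box, had summits at their starts in both libraries (7.89 and 3.73, and 7.01 and 3.96 in WT and Tle4cKO), as did Nfyc, a subunit of the Y box factor (8.81 and 3.67), and Jak1, a kinase of interferon receptors (7.11 and 5.48). Of 16 genes of peptide loading and turnover, 9 had a WT summit and 2 a Tle4cKO summit. The protease gene Ctsb (9.83 and 3.42) and the tetraspanin gene Cd82 (5.59 and 2.90) had both, and the protease gene Ctsd had a WT summit alone (6.08). Of 10 co-stimulation genes, 5 had a WT summit alone, with Cd40 (7.56) and Cd274 (5.90) highest, and Icosl, a ligand of T cells, had a Tle4cKO summit alone (2.93). Of 17 genes of class I presentation, 15 had a WT summit and 7 had both. Their highest scores come from 4 distinct pairs of summits, as Tap1, Tap2 and Psmb8 share the pair between Psmb8 and Tap2. The 7 also include the chaperone gene Canx (9.17 and 3.09) and the neighbouring proteasome activator genes Psme1 and Psme2, which share summits of 8.50 and 4.44 with the gene Rnf31. At Canx the WT summit lay at a start, and the Tle4cKO summit lay elsewhere in the window.

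**Figure D4:**
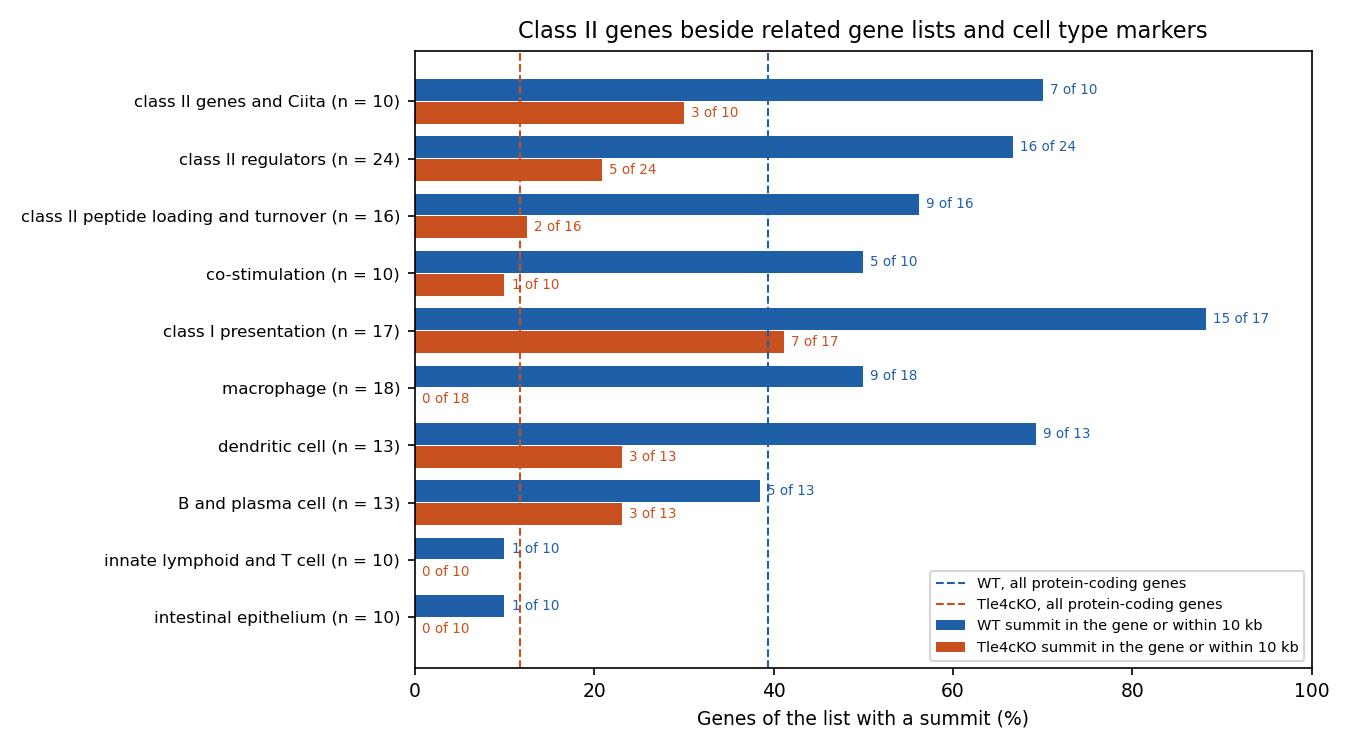
Share of genes with a summit in the gene or within 10 kb. Bars give the percentage of each list's genes (horizontal axis) with a WT (blue) or Tle4cKO (orange) summit and carry the count, and dashed lines are the shares over all protein-coding genes, 39.4% and 11.7%. The class II genes stand at 7 of 10 and 3 of 10, and of the lists of presentation genes the class I list, in which neighbouring genes share summits, is highest in both libraries.

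Genes of like pattern were sought for Cd74 and H2-Eb1, the members with a summit within 1 kb of an outer end in both lists, among 1225 such genes. Likeness was the distance between the pairs of score percentiles in the WT and Tle4cKO lists, over these 2 libraries. Nearest to Cd74 (91.5th percentile in WT and 86.1th in Tle4cKO) were Cbr4 (8.71 and 7.24), Nbn (8.77 and 7.06) and Vps37c (9.15 and 7.13), within 0.966 percentile points. Nearest to H2-Eb1 (51.7th and 1.91th percentile) were Ears2 and Ubfd1, which have a common summit (4.59 and 2.09), and Hmgb2 (4.46 and 2.21), within 3.44 percentile points.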

How the data were processed

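H3K27ac CUT&Tag libraries of colonic macrophages, 1 per genotype, were described from the deposited summit lists. The submitters' processing notes name cutadapt 1.14, Bowtie2 2.2.5 and the build mm10. Which caller made the lists, with what settings, control and depth, is not given in the sources used here. Each score that the authors deposited was taken to be a −log10 p- or q-value, since the layout is that of a summit file and the lowest scores lie just above 1.30. All summits on the autosomes, X and Y entered, 10474 in WT and 2350 in Tle4cKO. Genes came from NCBI RefSeq (GRCm38.p6), leaving out scaffold rows; promoter windows covered 17492 of 21774 protein-coding genes. A summit was given to a gene inside its outer bounds or within 10 kb, and counted as shared with a summit of the other list within 500 bp. Percentages over all genes use the same rule. The steps were tested on simulated data (Python 3.11.15, pandas 2.3.3).

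Named genes are the 10 members, the genes next to their summits or on the map, the 2 highest of each list per library and the 3 of most like pattern. Members and lists were chosen with earlier results of these data known. Genes named among the macrophage markers were chosen after their values were seen. Other windows, distances, score minimums and list lengths were tried.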

Additional observations from a re-analysis of the deposited data

How the results depend on the processing

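With 1 library per genotype and unknown depth, no count here has an error between libraries. No paired analysis was possible because each genotype has 1 library and no test was made. Of 63 recomputed counts, 40 stayed within 1.5 times the reported one, among them all counts with windows of 5 or 20 kb, with summits within 1 kb merged and with other sharing distances; counting only summits whose nearest protein-coding gene is the member, an alternative chosen after seeing the data, left 6 genes and 9 summits in WT and 3 and 3 in Tle4cKO. Inside the gene bounds alone, 1 gene (H2-DMa) had a WT summit, with 3 summits, and 0 had a Tle4cKO summit, so 0 genes had both and 0 summits had a partner. With a score of at least 5 in both lists, 4 genes and 4 summits remained in WT and 1 and 1 in Tle4cKO; 1 gene had both, 1 summit of each list had a partner, and 1 gene in each list had a summit at its start. With the WT list cut to the 2350 highest scores (6.37 or more), 2 genes and 2 WT summits remained, fewer than the 3 genes in Tle4cKO; 1 gene had both, 1 summit of each list had a partner and 1 gene had a WT summit at its start. With a start window of 500 bp, 0 genes had a Tle4cKO summit at the start. The Tle4cKO summit of Cd74 is 506 bp from the gene, and that of H2-Eb1 is 872 bp from its start.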

Other observations

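Beyond the windows of the class II genes, the highest WT scores of the region from H2-K1 to Notch4 lay on the far side of H2-Eb2. A summit of 7.43 (rank 1506) at position 34347966 lay between H2-Eb2 and Btnl2, 6556 bp outside H2-Eb2, the nearer gene. One of 7.35 (rank 1543) at 34391991 lay between Btnl1, a butyrophilin-like gene, and BC051142. It was 5829 bp outside Btnl1, the nearer gene. The data do not assign either summit to a gene. The nearest Tle4cKO summits were 42971 and 86996 bp away. Near Cd74, a WT summit of 5.91 (rank 2817) lay at position 60789703 of chromosome 18, between Cd74 and Rps14. It was 14146 bp outside Cd74, 11157 bp outside Rps14, the nearer gene, and 13640 bp from the nearest Tle4cKO summit. Near Ciita, a second Tle4cKO summit (2.34, rank 2160) lay at position 10452480 of chromosome 16, 27534 bp outside Ciita and 5090 bp outside Tvp23a, and its nearest WT summit was 34175 bp away. These values are given without a test, as each list is 1 library.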
